A study of Mus musculus with 13 samples.

Results

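The chemokines, interleukins and their receptors were taken as the genes whose symbol begins with Ccl, Cxcl, Ccr, Cxcr or Il followed by a number, and 59 of the 15176 genes in the deposited RPKM table met this rule. They comprised 11 chemokines, 7 chemokine receptors, 10 interleukins, 28 interleukin receptor subunits, 2 secreted antagonists (Il1rn and Il18bp) and Il4i1, a secreted amino acid oxidase named for its induction by an interleukin. RNA had been sequenced in 13 libraries that follow mouse fibroblasts through reprogramming with small molecules. Cells that stayed negative for an Oct4-GFP reporter (GFP-negative, n = 2) came from C57xICR fibroblasts under the treatment coded VC6TF. Oct4-GFP-positive clusters (n = 1) and Oct4-GFP-positive colonies (n = 1) came from the same kind of fibroblasts under VC6TF+Z, and all 3 kinds of treated cells were picked from the cultures for RNA. Pluripotent lines obtained by chemical reprogramming, numbered 6 and 11 (CiPSC, n = 2, C57xICR, VC6TFMB+Z), and the untreated embryonic stem cell line R1 (ESC, n = 4, strain 129) were kept on feeder layers of mitomycin C-treated fibroblasts. Untreated mouse embryonic fibroblasts (MEF, n = 3, C57xICR) were the starting cells. The labels do not spell out the codes of the mixes. ESC differ from MEF in strain as well as in cell type, and nothing in the labels says that the libraries of a group came from separate cultures, so p-values measure the spread between these libraries, which may be technical.

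Chemokines are small secreted proteins that attract cells through receptors coupled to G proteins, and atypical receptors bind the same ligands and remove them. Interleukins signal through receptors built from shared subunits, so that a cell's response depends on which subunits it makes: Il6st (gp130) serves the receptors for interleukin 6, interleukin 11 and LIF, and Il4ra pairs with Il13ra1 or Il2rg. Fibroblasts are a known source of chemokines such as Cxcl12, and mouse ESC are classically maintained with LIF, which acts through Il6st.

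Values are RPKM (reads per kilobase of gene, scaled to library size). In 10 libraries (GFP-negative 1 and 2, clusters, colonies, ESC 1 to 3 and MEF 1 to 3) the length was the whole gene span, introns included, at an estimated 8.89 to 17.72 M reads per library. In CiPSC 6, CiPSC 11 and ESC 4 it was the exons, at unknown depth, and these 3 were compared only with one another. The length scales were inferred from the values, since the labels do not state them. RPKM over gene span is lower for genes with long introns, so levels are compared here between libraries rather than between genes. Pou5f1, which encodes Oct4, was at 0.191 and 0.429 RPKM in GFP-negative cells, 124 in colonies, 86.2, 95.7 and 152 in ESC and 0, 0 and 0.154 in MEF. The library labelled Oct4-GFP-positive clusters held only 0.26 RPKM of Pou5f1, within the range of the GFP-negative cells, which goes against a reading of its label as Oct4-expressing cells, and it is called the library labelled clusters below. The fibroblast collagen Col1a1 was at 19.0 and 21.0 RPKM in GFP-negative cells, 21.1 in the library labelled clusters, 25.6 in colonies, 5.32 to 16.1 in ESC and 338, 292 and 1824 in MEF. Col1a1 is 1 of 12 fibroblast markers measured, of which 6 fell in GFP-negative cells against MEF and 1, Twist2, rose. Twist1 was not called, at 59.6 and 82.0 RPKM in GFP-negative cells, against 33.4, 19.5 and 34.4 in MEF. Nor was Thy1, at 106 and 127 RPKM in GFP-negative cells, against 186, 163 and 56.8 in MEF. MEF replicate 3 stood apart: the 12 macrophage and blood markers in the table summed to 274 RPKM there, against 23.5 and 37.7 in the other MEF libraries. Its 12 fibroblast markers summed to 2800 RPKM, against 836 and 740. RPKM over all genes summed to 119415 in MEF 3, against 74259 and 72329 in MEF 1 and 2. That total was also higher in colonies (164054) and ESC 3 (142311) than in the other gene-span libraries (67647 to 80708). The part of these totals in the values of single genes was not tested.

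Promoter sequences are shown for the 4 genes of the set with the largest called changes between GFP-negative cells and MEF (Il33, Cxcr7, Cxcl12 and Ccl9) and for 2 chemokines, Ccl20 and Cxcl10, whose GFP-negative values all lay below all MEF values. Each is the 250 bases before the gene's start in RefSeq on build GRCm38.p6, written 5′ to 3′ on the gene's strand. Capitals mark matches, on either strand, to an AP-1 site (TGANTCA), the NF-kappaB site, the cAMP response element (TGACGTCA) or a STAT site (TTCNNNGAA), and the marked matches do not overlap one another.
Il33 (chr19:29924863-29925112, plus strand): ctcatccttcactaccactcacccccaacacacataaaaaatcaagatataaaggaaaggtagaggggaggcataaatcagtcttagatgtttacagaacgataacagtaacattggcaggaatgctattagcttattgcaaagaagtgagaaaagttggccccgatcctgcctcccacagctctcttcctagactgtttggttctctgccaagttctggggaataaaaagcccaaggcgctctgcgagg
Cxcr7 (chr1:90203730-90203979, plus strand): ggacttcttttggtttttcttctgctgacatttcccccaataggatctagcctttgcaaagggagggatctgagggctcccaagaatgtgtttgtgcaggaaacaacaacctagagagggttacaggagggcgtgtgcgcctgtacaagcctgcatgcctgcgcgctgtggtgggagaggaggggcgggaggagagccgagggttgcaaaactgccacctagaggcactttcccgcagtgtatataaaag
Cxcl12 (chr6:117168285-117168534, plus strand): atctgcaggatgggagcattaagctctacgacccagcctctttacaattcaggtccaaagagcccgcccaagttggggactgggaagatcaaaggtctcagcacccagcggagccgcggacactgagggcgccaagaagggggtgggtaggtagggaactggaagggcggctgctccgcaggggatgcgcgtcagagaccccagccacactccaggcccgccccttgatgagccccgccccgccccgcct
Ccl9 (chr11:83578637-83578886, minus strand): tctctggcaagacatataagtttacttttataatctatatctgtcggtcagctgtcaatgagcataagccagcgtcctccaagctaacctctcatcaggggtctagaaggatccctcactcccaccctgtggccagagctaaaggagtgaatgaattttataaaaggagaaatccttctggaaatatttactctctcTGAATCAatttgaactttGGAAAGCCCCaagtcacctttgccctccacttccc
Ccl20 (chr1:83116516-83116765, plus strand): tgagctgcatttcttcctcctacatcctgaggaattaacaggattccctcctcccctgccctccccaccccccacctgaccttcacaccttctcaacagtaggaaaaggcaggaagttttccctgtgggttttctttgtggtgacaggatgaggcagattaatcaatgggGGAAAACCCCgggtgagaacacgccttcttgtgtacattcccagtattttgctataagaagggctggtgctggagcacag
Cxcl10 (chr5:92348890-92349139, minus strand): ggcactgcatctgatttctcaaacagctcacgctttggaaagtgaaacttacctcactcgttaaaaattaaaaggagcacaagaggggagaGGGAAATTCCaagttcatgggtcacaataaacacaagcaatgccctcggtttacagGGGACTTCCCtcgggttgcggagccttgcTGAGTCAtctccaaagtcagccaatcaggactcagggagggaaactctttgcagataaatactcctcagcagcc
In these windows Ccl9 holds an AP-1 match from position −53 and an NF-kappaB match from position −35 relative to the start. Ccl20 holds an NF-kappaB match from position −80, and Cxcl10 holds NF-kappaB matches from −159 and −103 and an AP-1 match from −74. None of the 4 motifs was found in the windows of Il33, Cxcr7 and Cxcl12. Of the 42 genes of the set with a RefSeq promoter, 7 held the AP-1 letters, against 6.87% of 27025 promoters of this length, 4 held the NF-kappaB site, against 3.75%, 4 held the STAT letters, against 7.18%, and 0 held the cAMP response element, against 1.62%. These matches describe letters only. The genes shown were picked: Ccl5, Ccl27b, Il6st and others also lay lower in both GFP-negative libraries than in any MEF library. The windows shown thus do not relate motifs to the direction of a change.

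Of the 59 genes 26 stayed under 1 RPKM in all 10 gene-span libraries, and 25 passed the filter for testing (1 RPKM or more in at least 2 of the 13 libraries): 8 chemokines, 1 chemokine receptor, 1 interleukin, 13 receptor subunits, Il1rn and Il4i1. A gene that passed this filter through a single group had to be higher there, so counts over the 25 tested genes describe those genes and not all 59. Ccl9, Ccl20 and Cxcl10 passed only through MEF, and Il13ra1 only through GFP-negative cells. Il33 passed through GFP-negative cells and the library labelled clusters alone, and Il17rd through ESC and CiPSC alone. For these genes the filter favoured the direction reported, so their p-values and calls are no independent evidence of it. The summed RPKM of the 59 genes was 111 and 108 in GFP-negative cells, 73.4 in the library labelled clusters, 38.1 in colonies, 22.7, 36.3 and 24.5 in ESC and 126, 111 and 103 in MEF. The sums of GFP-negative cells and MEF overlapped, and those of ESC lay below both. By this measure the chemokine Ccl7 was the highest member in both GFP-negative libraries, in MEF 1 and 2 and in ESC 2. RPKM over gene span gives short genes more weight, in such ranks and in the sums. Ccl7 spans 1814 bases and had an estimated 836 reads in GFP-negative replicate 1. Il33 spans 35605 bases and had an estimated 6970 reads there.

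**Figure D1:**
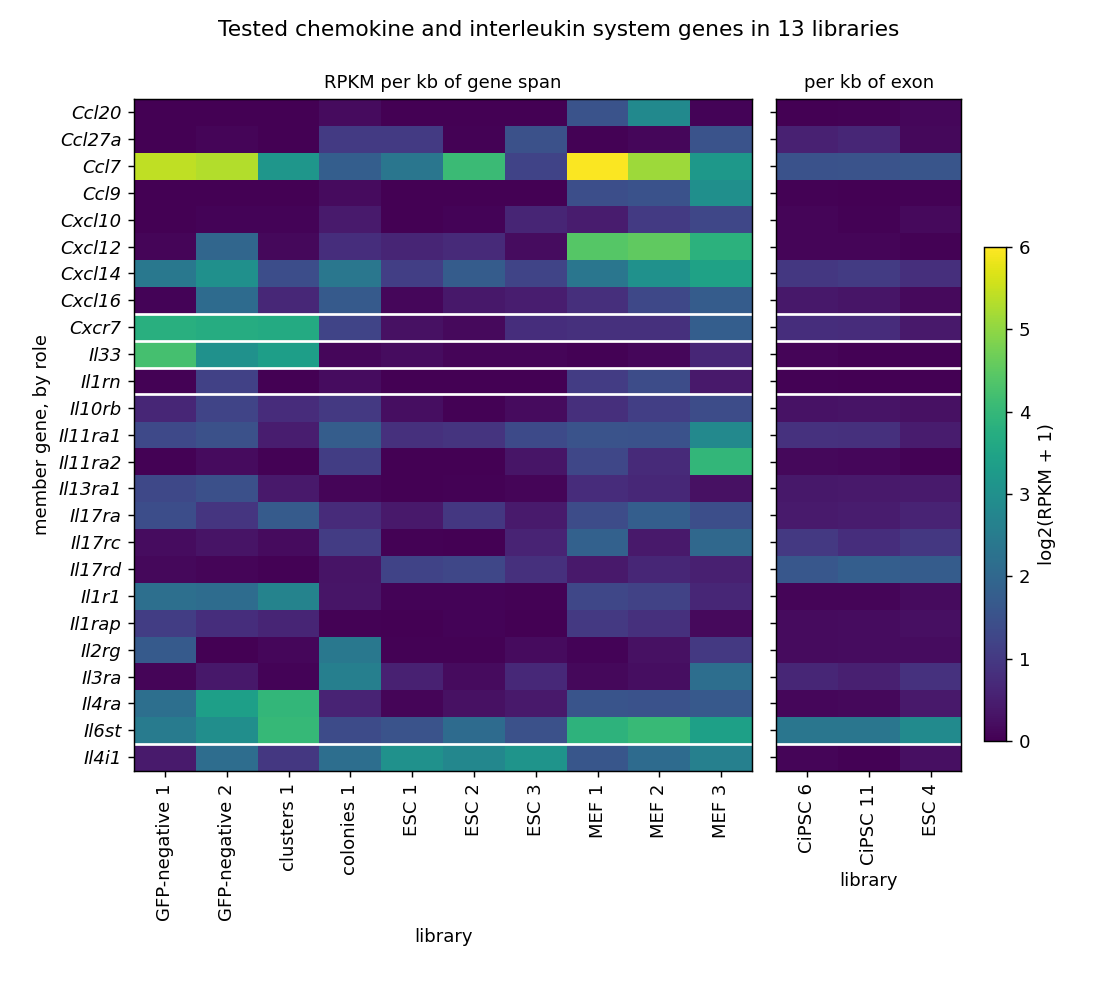
Heat map of log2(RPKM + 1) for the 25 tested genes (rows, ordered by role and divided by white lines) in 13 libraries (columns), with the 10 gene-span libraries left of the 3 exonic ones. Cxcr7 and Il33 stand out in both GFP-negative libraries and the library labelled clusters, Cxcl12 in the 3 MEF libraries.

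GFP-negative cells were compared with MEF to describe what the treated cells that had not turned on the reporter had gained or lost. Il33, Cxcr7, Il1r1 and Il4ra rose and Cxcl12 and Ccl9 fell. A gene was called when limma's Benjamini-Hochberg adjusted p over all 10647 genes tested was under 0.05 and its log2 change, on the scale of RPKM + 1, was at least 1 in size. By this rule 4 of the 25 genes were higher and 2 lower, 24% in all, while of all genes tested 3.53% were called higher and 4.09% lower, 7.62% in all. The ranges of the groups did not overlap for 5 of the 25 genes with GFP-negative cells higher and for 9 with GFP-negative cells lower, against 13.5% and 27.1% of all genes. The median log2 change was −0.36 over the 25 genes and −0.13 over all genes tested, and it stayed at −0.36 with genes at 0 in both GFP-negative libraries set to their detection limit. In bulk RNA, fewer cells of a type and less RNA per cell cannot be told apart.

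Il33, an alarmin of the interleukin 1 family that is held in the nucleus and released on damage, showed the largest rise of the 25 genes. Its RPKM was 17.7 and 7.22 in GFP-negative cells, against 0.0237, 0.0807 and 0.572 in MEF. These values correspond to an estimated 6970 and 2649 reads in GFP-negative cells, against 10, 51 and 195 reads in MEF. Both GFP-negative libraries lay far above all 3 MEF libraries, and they differed from each other by 1.19 on the log2 scale. The log2 change was 3.37 ± 0.32 (SE, limma adjusted p = 0.000516).

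The other interleukins did not pass the filter for testing. Il11, a cytokine that signals through Il6st, was at 0.166 and 2.10 RPKM in GFP-negative cells and at 0.0344, 0.0173 and 0.0637 in MEF, without overlap between the groups but with 1 GFP-negative library carrying most of the signal. Il1a, a pro-inflammatory interleukin, was at 0.418 RPKM in GFP-negative replicate 1 and at 0 in replicate 2, against at most 0.0401 in MEF. Neither gene passed the filter. The remaining interleukins were below 1 RPKM in all 10 gene-span libraries, a scale that gives low values to long genes. Among them Il34, with a span of 64096 bases, was at 0.771 and 0.0166 RPKM in GFP-negative cells. In MEF it was at 0.0605, 0.0387 and 0.0681 RPKM, between the 2 GFP-negative values. The GFP-negative replicate 1 value stood for an estimated 546 reads and that of replicate 2 for 11.

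Of the 2 secreted antagonists, Il1rn, which blocks the interleukin 1 receptor, was at 0.0185 and 1.25 RPKM in GFP-negative cells, against 1.09, 1.62 and 0.32 in MEF. The GFP-negative libraries thus fell on either side of the lowest MEF library, and the log2 change of −0.35 ± 0.34 (SE) was not called (limma adjusted p = 0.56). Il18bp, which binds interleukin 18, was at 7.84 RPKM in GFP-negative replicate 1 but at 0.0315 in replicate 2, with 0.0822, 0.568 and 0.878 in MEF. It was above 1 RPKM in that library alone of the 10 and did not pass the filter. Its gene overlaps another coding gene.

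Among chemokine receptors the rise of Cxcr7 was the only call, and Cxcr7 was the only receptor of this class that could be tested. Cxcr7 (today Ackr3) is an atypical receptor that captures Cxcl12. Its RPKM was 12.7 and 12.1 in GFP-negative cells, against 0.792, 0.789 and 2.44 in MEF. The GFP-negative replicates were close to each other and both lay above every MEF library, with a log2 change of 2.59 ± 0.32 (SE, limma adjusted p = 0.00198). Cxcr4, the signalling receptor for Cxcl12, was at 0 in both GFP-negative libraries and at 0.33, 0.248 and 1.5 RPKM in MEF. Against the limit of 3 reads in a single GFP-negative library (0.0711 RPKM), it was at least 9.73-fold lower than the MEF mean of 0.692 RPKM, or at least 4.06-fold lower than the mean of 0.289 RPKM without MEF replicate 3, though it was not tested. MEF replicate 3, the library with most macrophage and blood marker RNA, was the highest for Cxcr4, and the part of that RNA in this value was not tested. The other 5 chemokine receptors were under 0.1 RPKM in every GFP-negative and MEF library.

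Of the 8 chemokines tested, Cxcl12 and Ccl9 fell, none rose, and their median log2 change was −0.70. Cxcl12, the attractant bound by Cxcr4 and Cxcr7, was at 0.0563 and 2.94 RPKM in GFP-negative cells, against 20.4, 22.3 and 13.6 RPKM in MEF. The 2 GFP-negative libraries were far apart, at an estimated 8 and 389 reads, but both lay below all MEF libraries. The log2 change was −3.25 ± 0.49 (SE, limma adjusted p = 0.00526). With GFP-negative replicate 1 left out it was −2.3 and with replicate 2 left out −4.2, called either way.

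Ccl9, a mouse chemokine that attracts myeloid cells, was at 0 in both GFP-negative libraries, against 1.71, 1.87 and 6.96 RPKM in MEF. Against the limit of 3 reads in a single library (0.0509 RPKM) it was at least 69.1-fold lower in GFP-negative cells than the MEF mean of 3.52 RPKM, or at least 35.2-fold lower than the mean of 1.79 RPKM without MEF replicate 3. The fitted log2 change was −1.98 ± 0.39 (SE, limma adjusted p = 0.0173), a size that depends on the pseudocount, and the call was lost without GFP-negative replicate 1 (limma adjusted p = 0.0784). Ccl9 passed the filter through MEF alone, so its p-values and calls are no independent evidence of a fall. MEF replicate 3 was again the highest. The macrophage marker Lyz2 moved with it, at 0 and 0.0194 RPKM in GFP-negative cells and 15, 22.6 and 97.2 in MEF, and the 12 macrophage and blood markers summed to 10.8 and 1.83 RPKM in GFP-negative cells, with 7 and 5 of the 12 at 0. Without MEF replicate 3 Ccl9 was still called lower, with a log2 change of −1.48 (limma adjusted p = 2.46e-05). The part of the marker RNA in the other MEF libraries was not tested.

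Ccl7, an attractant of monocytes, was abundant in both groups, at 41.7 and 38.7 RPKM in GFP-negative cells and 61.9, 33.8 and 8.20 in MEF. The groups overlapped and the MEF libraries spread widely. The log2 change of 0.60 had a 95% interval of −1.5 to 2.7 (limma adjusted p = 0.735), which leaves changes of several-fold in either direction possible. Cxcl14, a chemokine of epithelia and stroma, also overlapped, at 4.28 and 7.08 RPKM in GFP-negative cells and 4.12, 7.13 and 10.1 in MEF (log2 change −0.24, 95% interval −1.07 to 0.59, limma adjusted p = 0.73). Cxcl16, which is made as a membrane protein and shed, was at 0.0451 and 3.27 RPKM in GFP-negative cells, on both sides of the MEF values of 0.745, 1.46 and 2.37.

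Ccl20, Cxcl10, Ccl5 and Ccl27b also had lower values in both GFP-negative libraries than in any MEF library, without a call. Ccl20, the ligand of Ccr6, was at 0 in both GFP-negative libraries and at 1.90, 6.24 and 0.0433 RPKM in MEF (log2 change −1.48 ± 0.62, SE, limma adjusted p = 0.173). Its MEF replicate 3 value stood for an estimated single read, and without that library Ccl20 was called lower. Cxcl10, an interferon-induced chemokine, was at 0 and 0.043 RPKM in GFP-negative cells and 0.374, 1.03 and 1.43 in MEF (log2 change −0.89 ± 0.25, SE, limma adjusted p = 0.0585). Ccl20 and Cxcl10 passed the filter through MEF alone, so their p-values and calls are no independent evidence of a fall. Ccl5, an attractant of T cells, was at 0 in both GFP-negative libraries and at 0.943, 0.951 and 0.197 RPKM in MEF, and it did not pass the filter. The spans of Cxcl10 and Cxcl16 overlap another coding gene, whose reads cannot be told apart without strand. Ccl27b was at 0.0335 and 0.0359 RPKM in GFP-negative cells and 0.829, 0.0418 and 0.945 in MEF, and it did not pass the filter. Its values in GFP-negative cells and MEF 2 lay below the limit of 3 reads, those in MEF 1 and 3 above it. The remaining chemokines, Ccl27a and Cxcl11, stayed at or below 0.0607 RPKM in GFP-negative cells and 1.91 RPKM in MEF, with ranges that overlapped or touched.

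Among the 13 interleukin receptor subunits tested, Il1r1 and Il4ra rose and none fell, with a median log2 change of −0.36. Il1r1, the signalling receptor for interleukin 1, was at 3.54 and 3.36 RPKM in GFP-negative cells, against 1.44, 1.27 and 0.555 in MEF. The groups did not overlap, and the log2 change was 1.12 ± 0.19 (SE, limma adjusted p = 0.00887). Without MEF replicate 3, the lowest of its group, the change was 0.92 and the size threshold was no longer met. Il4ra, the shared chain of the receptors for interleukins 4 and 13, was at 3.55 and 9.53 RPKM in GFP-negative cells, against 1.97, 1.85 and 2.21 in MEF. Both treated libraries were above all MEF libraries, but they differed by more than the smaller of them exceeded MEF. The log2 change of 1.2 ± 0.32 (SE) lay at the edge of the threshold (limma adjusted p = 0.0491), and 13 of 15 alternatives lost the call.

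Il13ra1, the partner of Il4ra for interleukin 13, was at 1.46 and 1.74 RPKM in GFP-negative cells, against 0.704, 0.584 and 0.213 in MEF. The groups did not overlap and the adjusted p passed (limma, 0.01), but the log2 change of 0.81 ± 0.14 (SE) was under 1. Il6st was at 4.62 and 6.75 RPKM in GFP-negative cells and at 13.7, 15.4 and 9.69 in MEF. It was lower in both treated libraries without a call (log2 change −1.06 ± 0.31, SE, limma adjusted p = 0.066), and it was called lower once MEF replicate 3 was left out. Il1rap, the accessory chain of Il1r1, was at 1.12 and 0.733 RPKM in GFP-negative cells and 1.001, 0.767 and 0.108 in MEF, with overlap. Its log2 change of 0.28 had a 95% interval of −0.22 to 0.78 (limma adjusted p = 0.46). Some subunits that did not pass the filter also showed no overlap. Il18rap was at 0.6734 and 0.2264 RPKM in GFP-negative cells, against 0.02088, 0.04494 and 0.0143 in MEF. Il28ra was at 1.299 and 0.09284, against at most 0.01424 in MEF. Il1rl2 was at 1.503 and 0.6967, against 0.1919, 0.6425 and 0.3588 in MEF. Il1r2 was also higher, at 0.02009 and 0.2489, against at most 0.01671. Il27ra was lower, at 0.00734 and 0, against 0.1919, 0.06867 and 0.08449.

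Several receptor subunits spread widely within a group. Il2rg, the common gamma chain, was at 2.26 and 0.0127 RPKM in GFP-negative cells and at 0.0332, 0.20 and 0.982 in MEF. Il3ra, the alpha chain of the interleukin 3 receptor, was at 0.0502 and 0.301 RPKM in GFP-negative cells and at 0.0937, 0.175 and 3.52 in MEF. Il11ra2, a near-copy of the interleukin 11 receptor gene Il11ra1 whose reads may be split between the copies, was at 0.0172 and 0.138 RPKM in GFP-negative cells and at 1.44, 0.628 and 14.6 in MEF, without overlap (log2 change −1.88 ± 0.78, SE, limma adjusted p = 0.169). Il17rc, a partner of Il17ra, was at 0.147 and 0.24 RPKM in GFP-negative cells and at 2.64, 0.322 and 3.08 in MEF, also without overlap or a call (−1.18 ± 0.43, limma adjusted p = 0.129). In Il3ra and Il11ra2 the outlying value was MEF replicate 3, and the part of its macrophage and blood RNA in them was not tested. Between the 2 GFP-negative libraries 7 of the 25 genes differed by more than 1 on the log2 scale (Cxcl12, Cxcl16, Il1rn, Il2rg, Il33, Il4i1 and Il4ra), and so did 23.2% of all genes tested. The like shares of all genes were 3.26% between MEF replicates 1 and 2 and 6.72% between ESC replicates 1 and 2.

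The libraries also fell into sets by how unmeasured genes were written (exactly 0, or 0.001 in MEF 3, colonies and ESC 3). Within the set with exact 0, which holds GFP-negative 1 and 2 and MEF 1 and 2, Il33 (log2 change 3.56), Cxcr7 (2.90), Cxcl12 (−3.45) and Ccl9 (−1.48) were called, with limma adjusted p of 0.00722 to 0.036. Il1r1 (0.92, limma adjusted p = 0.10) and Il4ra (1.25, limma adjusted p = 0.165) were not.

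**Figure D2:**
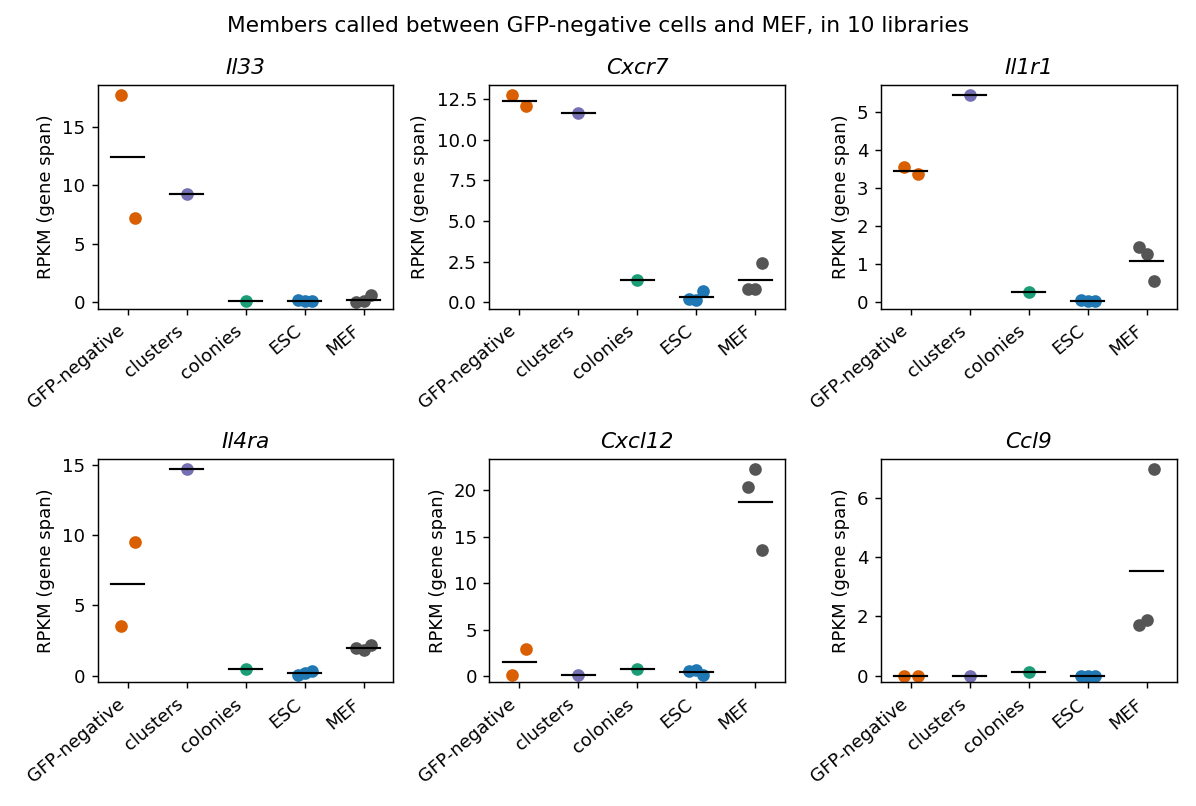
RPKM per kilobase of gene span (y axes, each with its own scale) of the 6 genes called between GFP-negative cells and MEF, with a point per library and a line at each group's mean. Il33, Cxcr7, Il1r1 and Il4ra are high in GFP-negative cells and the library labelled clusters and low in colonies and ESC, while Cxcl12 and Ccl9 are highest in MEF.

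GFP-negative cells were compared with ESC to set the treated cells against the pluripotent end point. Of the 25 genes 8 were higher and 1 lower, against 8.35% and 14.3% of all genes tested (22.7% in all). Ranges did not overlap for 11 genes higher and 2 lower, against 17.6% and 37.6% of all genes. The median log2 change was 0.60 over the 25 genes and −0.25 over all. Il33 was at 17.7 and 7.22 RPKM in GFP-negative cells, against 0.146, 0.0603 and 0.0645 in ESC (log2 change 3.51 ± 0.32, SE, limma adjusted p = 0.000174). Cxcr7 was at 12.7 and 12.1 RPKM in GFP-negative cells, against 0.212, 0.116 and 0.711 in ESC (3.34 ± 0.32, limma adjusted p = 0.000216). Both are genes that were also higher in GFP-negative cells than in MEF, and the 2 comparisons share the GFP-negative libraries.

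The other higher genes were receptor subunits and chemokines. Il1r1, the interleukin 1 receptor, was at most 0.0495 RPKM in ESC (log2 change 2.10 ± 0.19, limma adjusted p = 0.000153). Il4ra was at 0.0663, 0.212 and 0.337 RPKM in ESC (2.53 ± 0.32, limma adjusted p = 0.00074) and its partner Il13ra1 at most 0.0573 RPKM (1.33 ± 0.14, limma adjusted p = 0.000342). These 5 genes kept their call in every alternative that could be computed. The filter favoured the direction of Il33 and Il13ra1, so their kept calls are no independent evidence of it. Of 15 alternatives, 11 lost the call of Ccl7 (limma adjusted p = 0.0192 to 0.147 over all 15), 8 that of Il6st (0.0261 to 0.301) and 5 that of Cxcl14 (0.00883 to 0.101). Ccl7 was at 4.15, 16.1 and 1.32 RPKM in ESC, below both GFP-negative libraries (2.81 ± 0.92, limma adjusted p = 0.0475). Cxcl14 was at 1.18, 2.33 and 1.34 RPKM in ESC (1.35 ± 0.36, limma adjusted p = 0.0234), and Il6st at 1.91, 3.26 and 1.79 RPKM (1.02 ± 0.31, limma adjusted p = 0.0349). ESC were kept on fibroblast feeders, and the 12 fibroblast markers summed to 11.7, 17.7 and 26.9 RPKM in ESC 1 to 3. The part of feeder RNA in the ESC values was not tested.

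Il4i1 was the gene called lower in GFP-negative cells, at 0.355 and 3.41 RPKM, against 7.15, 5.91 and 7.59 in ESC (log2 change −1.68 ± 0.47, SE, limma adjusted p = 0.0273). Its span overlaps the coding genes Atf5, Nup62 and Tbc1d17, whose reads cannot be told apart from its own in these values. In the exonic libraries Il4i1 was at 0.0665 and 0.028 RPKM in CiPSC 6 and 11 and at 0.179 in ESC 4. The call was lost in 7 of 15 alternatives. Il17rd, also known as Sef and described as a brake on FGF signalling, fell just short of the size threshold and was not called. It was at 0.102 and 0.0666 RPKM in GFP-negative cells and 1.31, 1.41 and 0.779 in ESC, without overlap (−0.99 ± 0.16, limma adjusted p = 0.00293).

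ESC were compared with MEF as the end point against the starting cells. None of the 25 genes was called higher in ESC and 5 were called lower, against 7.95% and 7.97% of all genes tested (15.9% in all). Ranges did not overlap for 2 genes higher and 16 lower, against 26.8% and 16.7% of all genes. At an unadjusted limma p under 0.05, 1 gene was higher and 18 were lower, 19 of 25, while 37.1% of all genes tested reached that p. The median log2 change was −0.95 over the 25 genes (−0.93 with genes at 0 in all ESC libraries set to their detection limit) and 0.14 over all genes. Cxcl12 was at 0.539, 0.637 and 0.140 RPKM in ESC, against 20.4, 22.3 and 13.6 in MEF (log2 change −3.77 ± 0.44, SE, limma adjusted p = 0.0006). Il6st was at 1.91, 3.26 and 1.79 RPKM in ESC, against 13.7, 15.4 and 9.69 in MEF (−2.07 ± 0.27, limma adjusted p = 0.00117). Neither gene's groups overlapped. Ccl9 had no reads in the 3 ESC libraries and was at least 67.1-fold lower than in MEF at the limit of 3 reads in a single library, or at least 34.2-fold lower without MEF replicate 3.

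Cxcl14 (log2 change −1.59 ± 0.33, SE, limma adjusted p = 0.00904) and Il4ra (−1.32 ± 0.28, limma adjusted p = 0.0109) also fell. Both lost the call within the libraries with exact 0, at limma adjusted p of 0.0985 and 0.0968, while Cxcl12, Il6st and Ccl9 kept it there. Il1r1 fell just short of the size threshold and was not called. It was at 0.0495, 0.0399 and 0.0274 RPKM in ESC and 1.44, 1.27 and 0.555 in MEF (−0.98 ± 0.17, limma adjusted p = 0.00418). The gene higher in ESC at an adjusted p under 0.05 was Il17rd, at 1.31, 1.41 and 0.779 RPKM in ESC and 0.32, 0.575 and 0.44 in MEF, with a log2 change of 0.58 ± 0.15 (SE, limma adjusted p = 0.0228) that was under 1. Il33 and Cxcr7, high in GFP-negative cells, were not called between ESC and MEF (log2 changes −0.14 and −0.75, limma adjusted p = 0.764 and 0.0937).

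**Figure D3:**
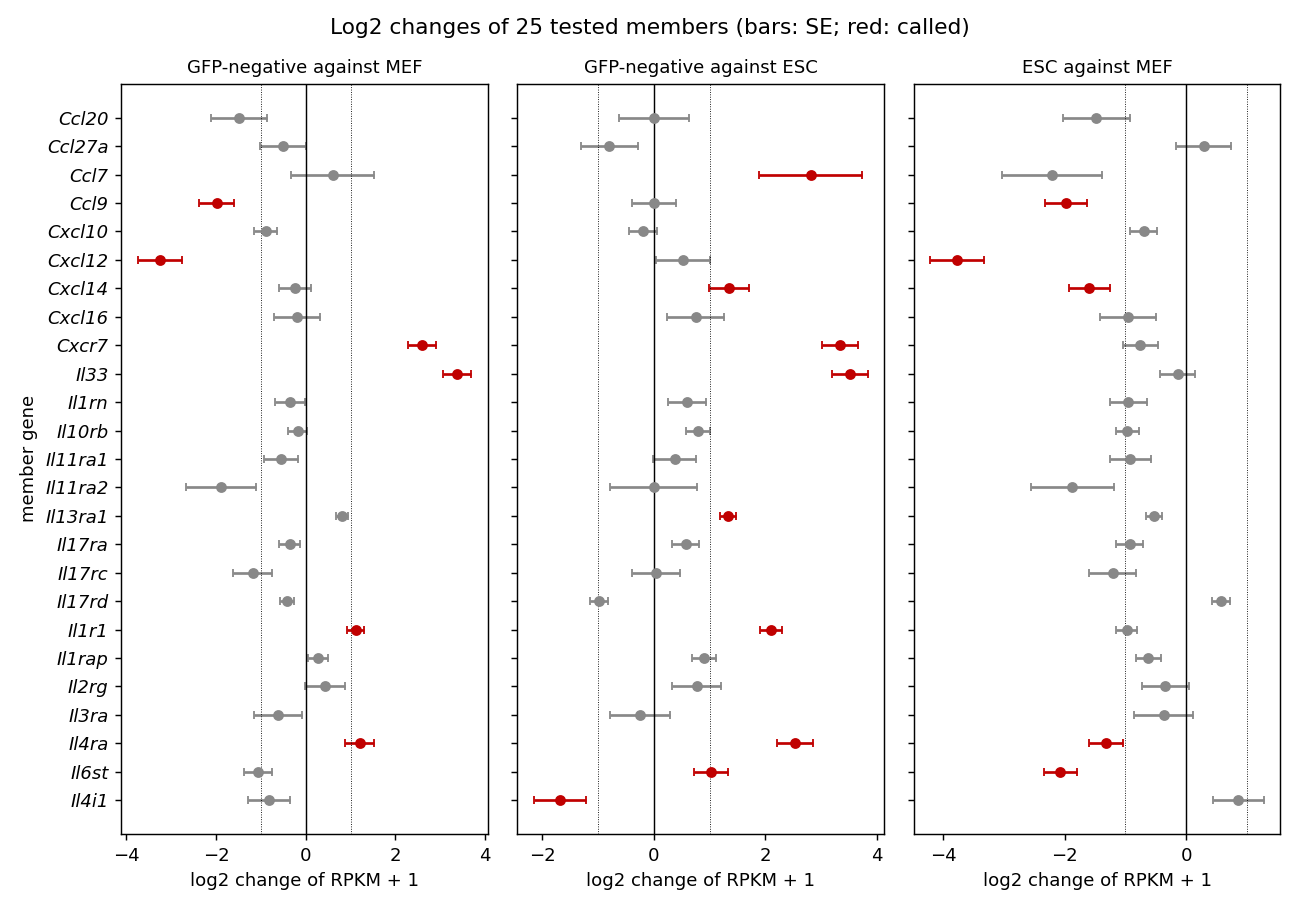
Log2 change of RPKM + 1 (x axes) for the 25 tested genes (rows) in 3 comparisons, with bars for the SE, red for called genes and dotted lines at a change of 1 in size. Il33 and Cxcr7 lie right of the line in both panels with GFP-negative cells, and Cxcl12 and Ccl9 lie left of it in both panels against MEF.

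The library labelled clusters was compared without a test, since it is a single library, and genes are named when their log2 difference was at least 1 in size. It resembled the GFP-negative cells in the genes high there: Il33 was at 9.23 RPKM, Cxcr7 at 11.7 and Il1r1 at 5.43. Against the GFP-negative mean, Il4ra (14.7 RPKM, log2 difference 1.18) and Il6st (15.1 RPKM, 1.29) were higher and Ccl7 (7.92 RPKM, −2.21) and Cxcl14 (1.69 RPKM, −1.28) lower. These are 2 higher and 2 lower of 25 genes, against 11.4% and 13.2% of all genes tested (24.6% in all). The GFP-negative libraries themselves differed in Il4ra (3.55 and 9.53 RPKM), and 23.2% of all genes tested differed by more than 1 on the log2 scale between them. The counts thus changed with the GFP-negative library used. The endothelial marker Kdr was at 24.6 RPKM in the library labelled clusters, against 0.469 and 0.25 in GFP-negative cells, and it was the only 1 of the 8 endothelial markers at 1 RPKM or more there; the part of such cells in these values was not tested.

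Against MEF, 4 genes were higher and 9 lower in the library labelled clusters, with 10.8% and 19.7% of all genes past that difference (30.5% in all). The 4 higher genes were Il33 (log2 difference 3.09), Cxcr7 (2.51), Il4ra (2.38) and Il1r1 (1.65). Cxcl12, at 0.0961 RPKM, had the largest difference among the lower genes (−4.14), followed by Ccl9 (no reads), Il11ra2, Ccl7, Cxcl14, Ccl20, Il11ra1, Il17rc and Il4i1. Against ESC, 6 were higher (Il4ra at 3.71, Cxcr7, Il33, Il1r1, Il6st and Il17ra) and 2 lower (Il4i1 and Il17rd), against 13.6% and 25.9% of all genes (39.5% in all). Il17ra is the shared chain of the interleukin 17 receptors. All of these comparisons use the same MEF, ESC and GFP-negative libraries as the tests above.

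The colonies library had low values of the genes that marked GFP-negative cells. Il33 was at 0.0727 RPKM, Cxcr7 at 1.34, Il1r1 at 0.269 and Il4ra at 0.505. Against the library labelled clusters, the log2 differences were −3.38 for Il4ra, −3.25 for Il33, −2.63 for Il6st (1.60 RPKM), −2.43 for Cxcr7, −2.34 for Il1r1 and −1.36 for Ccl7 (2.47 RPKM). Higher in colonies were Il3ra (4.99 RPKM, 2.51), Il2rg (4.25 RPKM, 2.29), Il11ra1, Il4i1, Il11ra2, Cxcl16 and Ccl27a. This makes 7 higher and 6 lower of 25 genes, against 27.3% and 12.6% of all genes tested (39.9% in all), so the share of higher genes was close to the background. This comparison crosses the sets by unmeasured value, since colonies, like MEF 3 and ESC 3, held 0.001 and the library labelled clusters exact 0. In the set of colonies, Il3ra was at 4.99 RPKM in colonies, 0.621 in ESC 3 and 3.52 in MEF 3, and Il2rg at 4.25 in colonies, 0.131 in ESC 3 and 0.982 in MEF 3. Of the other higher genes, Il11ra1, Il11ra2, Il4i1, Cxcl16 and Ccl27a were also highest in MEF 3 among the MEF libraries, and set and group cannot be told apart here. Il11ra1 and Ccl27a overlap each other in the genome and lie near close copies, and their values are uncertain.

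Colonies had 2 genes higher and 5 lower than MEF, against 14.3% and 7.3% of all genes (21.6% in all). Il2rg (log2 difference 1.96) and Il3ra (1.74) were the higher ones, and Cxcl12 (0.722 RPKM, −3.49), Ccl7, Il6st, Ccl9 and Ccl20 the lower. Compared with ESC, 4 were higher and 0 lower, against 14.9% and 9.24% of all genes (24.1% in all): Il2rg (2.30), Il3ra (2.11), Cxcl16 (1.37) and Cxcl14 (1.01). Il2rg and Il3ra are receptor chains of blood cells. The 12 macrophage and blood markers summed to 28.7 RPKM in colonies, against 4.34 to 12.1 in ESC and 23.5, 37.7 and 274 in MEF. The colonies sum thus lay within the range of MEF. None was at 0 in colonies and 5 were at 1 RPKM or more, Cd68 at 15.8 and Mpeg1 at 5.55 among them. Others were near 0 in colonies, with Coro1a at 0.079, Itgb2 at 0.0562 and Itgam at 0.00304. The 8 endothelial markers summed to 22.2 RPKM in colonies, against 2.23 to 3.08 in ESC and 2.77 to 4.37 in MEF, with none at 0 and 3 at 1 RPKM or more (Esam at 13.4, Cdh5 at 5.42 and Flt1 at 1.41). Kdr was at 0.072 in colonies. Pecam1 and Eng were lower in colonies (0.119 and 0.546) than in ESC (0.66 to 0.759 and 1.32 to 1.75). The part of either kind of marker RNA in these values was not tested.

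Other genes of the pathways that these ligands and receptors use or feed were read from lists. In GFP-negative cells against MEF, 2 of 3 tested genes of other chemokine systems fell: Cmklr1 (log2 change −1.19 ± 0.24, SE) and Rarres2 (−1.68 ± 0.41), a receptor and its ligand chemerin, with limma adjusted p of 0.0192 and 0.0406. Rarres2 was at 0.0304 and 0.13 RPKM in GFP-negative cells and 0.851, 4.57 and 2.97 in MEF. Of 22 JAK-STAT and SOCS genes 2 fell, the transcription factors Stat2 (−1.65 ± 0.25) and Stat6 (−1.14 ± 0.26), and none rose. Stat6 transmits the signal of Il4ra. Median log2 changes of these lists were −1.19 and −0.08, beside −0.13 over all genes. Of all genes tested in this comparison, 3.53% were called higher and 4.09% lower.

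Of 17 NF-kB pathway genes only Ikbkg, a kinase subunit, rose (1.05 ± 0.23, limma adjusted p = 0.0248), and none fell. Of 14 Toll-like and interleukin 1 receptor signalling genes only Cd14 rose. Cd14, a co-receptor for bacterial lipopolysaccharide that myeloid cells also carry, was at 69.3 and 52.3 RPKM in GFP-negative cells, against 1.32, 1.86 and 10.5 in MEF (3.85 ± 0.59, limma adjusted p = 0.00582). The macrophage markers Lyz2, Laptm5 and Csf1r were at most 0.0838 RPKM in both GFP-negative libraries, while Mpeg1 was at 10.4 in replicate 1 and 0.215 in replicate 2. Cd68 was at 0.233 RPKM in replicate 1 and 1.45 in replicate 2. In each of these libraries 1 of the 12 macrophage and blood markers was at 1 RPKM or more. The part of such RNA in the Cd14 values was not tested. Of 11 genes of the TNF family 3 rose and 1 fell. The ligand Tnfsf9 was at 34.8 and 41.6 RPKM in GFP-negative cells, against 0.249, 0.57 and 1.23 in MEF (4.58 ± 0.25, limma adjusted p = 2.6e-05), and Tnfsf11 (RANKL) and the death receptor Tnfrsf10b rose by 1.96 and 1.60 on the log2 scale. The lymphotoxin receptor Ltbr fell (−1.83 ± 0.46, limma adjusted p = 0.0434). Median log2 changes of the 3 lists were −0.07, −0.04 and 0.31. Of all genes tested, 3.53% were called higher and 4.09% lower, so single calls among 17 and 14 genes do not set those lists apart.

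Of 15 other inflammatory secreted and adhesion genes 6 rose and none fell in GFP-negative cells against MEF, with a median log2 change of 0.72. The shares over all genes were 3.53% higher and 4.09% lower. Ptgs2, the inducible cyclooxygenase, was at 110 and 89.1 RPKM in GFP-negative cells, against 0.877, 1.84 and 0.461 in MEF (5.66 ± 0.35, SE, limma adjusted p = 4.6e-05). Ptges, the prostaglandin E synthase that acts after it, was at 13.8 and 14.8 RPKM in GFP-negative cells, against 0.868, 0.269 and 0.749 in MEF (3.25 ± 0.24). The secreted phosphoprotein Spp1 was at 455 and 389 RPKM in GFP-negative cells, against 10.8, 13.4 and 26.9 in MEF (4.65 ± 0.66). In all 3 genes both GFP-negative libraries lay above every MEF library. Mmp3, Vcam1 and Kitl also rose. Csf1, a macrophage growth factor, was at 20.3 and 18.7 RPKM in GFP-negative cells and 51.2, 49.2 and 9.69 in MEF and was not called. In the library labelled clusters Ptgs2 was at 56.4 RPKM, Spp1 at 250 and Cd14 at 45.5, and in colonies they were at 0.0253, 26.3 and 1.80. Against ESC, 11 of these 15 genes were higher in GFP-negative cells and none lower (median 2.22), beside 8.35% and 14.3% of all genes and a median of −0.25. In ESC, 4 were lower than in MEF, beside 7.97% of all genes. The list was chosen with earlier results of these data known, so its direction is no independent evidence.

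CiPSC lines 6 and 11 were compared with ESC 4 on the exonic scale to describe reprogrammed lines beside an established line. None of the 25 genes was called by limma, while 0.122% of all genes were called higher and 0.0376% lower (17 genes or 0.16% in all). An unadjusted p under 0.05 was reached by 0 of the 25 genes and by 4.76% of all genes. The median log2 change was −0.02 over the 25 genes and 0.02 over all genes tested. ESC 4 is a single library and is assumed to vary as the other groups do. The summed RPKM of the 59 genes was 19.7 and 20.1 in CiPSC 6 and 11 and 23.1 in ESC 4.

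Il6st was the highest of the 59 genes in all 3 exonic libraries, at 4.09 and 4.12 RPKM in CiPSC 6 and 11 and 6.35 in ESC 4. Its log2 change of −0.53 had a 95% interval of −1.46 to 0.41. These lines were kept on fibroblast feeders, and the 12 fibroblast markers summed to 3.07 and 2.09 RPKM in CiPSC and 14.2 in ESC 4. The part of feeder RNA in the values of Il6st and the other genes was not tested. Il17rd was at 2.08 and 2.48 RPKM in CiPSC and 2.33 in ESC 4 (95% interval −0.53 to 0.48). Cxcr7 was at 0.732 and 0.688 RPKM in CiPSC and 0.339 in ESC 4, with a log2 change of 0.35 and a 95% interval of −0.64 to 1.34. Il33, at 0.0536 and 0.0271 RPKM in CiPSC and 0.0267 in ESC 4, was low in all 3, as was Cxcl12, at 0.0569 and 0.0609 in CiPSC and 0.0265 in ESC 4. The intervals are wide, and these values do not show that the lines are alike.

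With a single ESC library, most genes lie on 1 side of it: both CiPSC lines were above ESC 4 in 10 of the 25 tested genes and below it in 12, against 48.2% and 41.3% of all genes tested, so lying apart says nothing about these genes. The following low genes were not tested and are given as values. Il6ra, the ligand-binding chain for interleukin 6, was at 0.269 and 0.289 RPKM in CiPSC and 0.923 in ESC 4, and Il17d, an interleukin 17 family member, at 0.484 and 0.701 in CiPSC and 1.14 in ESC 4. Il34, a ligand of the macrophage receptor Csf1r, was at 0.825 and 0.996 RPKM in CiPSC and 1.49 in ESC 4. Il23a, a subunit of interleukin 23, and Il1r2, the decoy receptor for interleukin 1, went the other way, with Il23a at 0.482 and 0.491 RPKM in CiPSC and 0.171 in ESC 4 and Il1r2 at 0.324 and 0.373 in CiPSC and 0.0402 in ESC 4. Ccl7 was at 1.84 and 1.91 RPKM in CiPSC and 1.99 in ESC 4.

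**Figure D4:**
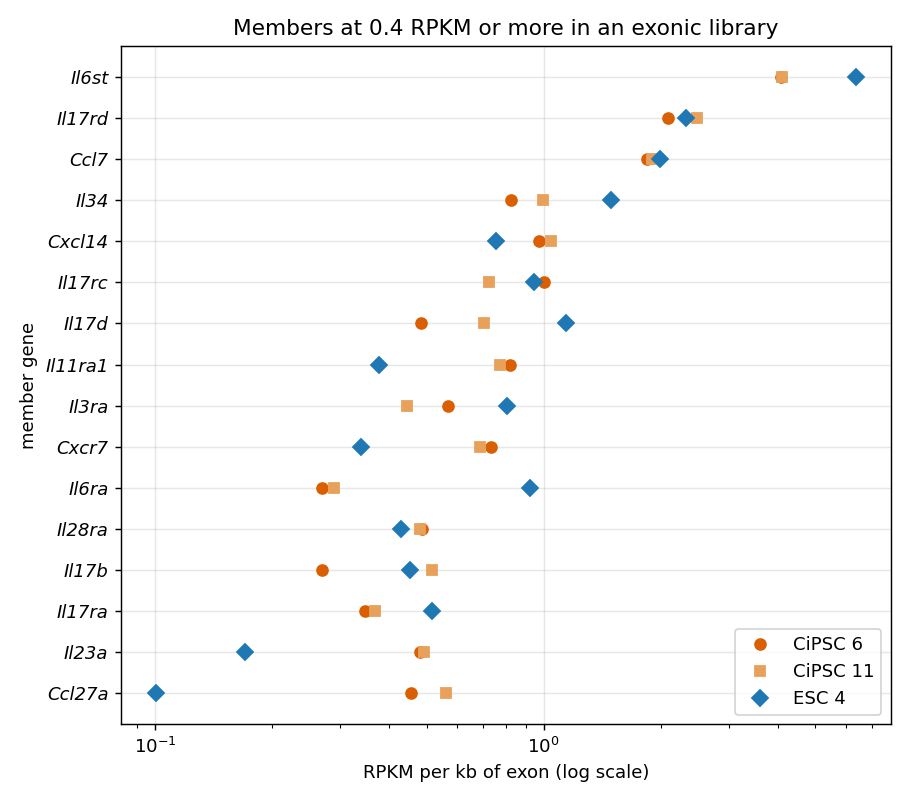
RPKM per kilobase of exon (log axis) of the genes of the set at 0.4 RPKM or more in at least 1 of the 3 exonic libraries (rows), with points for CiPSC 6, CiPSC 11 and ESC 4. Il6st lies highest in all 3 libraries, and Ccl27a and Il23a lie furthest left for ESC 4.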

How the data were processed

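RNA sequencing of 13 mouse libraries was analysed from 1 table of RPKM deposited by the authors. The submitters' processing notes name TopHat 1.3.0 and mm9. How reads were counted, on which annotation and with what strand setting is not stated by the sources at hand. Of 15184 rows, 8 that shared 1 identifier were left out, leaving 15176 genes, and no column was unused. RPKM times gene span (GRCm38 lengths, 98.8% of genes) gave whole multiples of a step for 82.9 to 85.5% of low values (tolerance 0.05 reads) in the 10 gene-span libraries, from which reads and their 3-read limits were estimated. For the 59 genes 64.5% of 203 values of 1 to 20 reads were whole, so their reads and limits are approximate. These cover counting error only. Whole reads were not recovered for nearly all genes, so no count test was run.

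Values were analysed as log2(RPKM + 1), which understates changes of low genes, with limma 3.58.1 (R 4.3.3; trend, 13 libraries, 1 coefficient per group and a term for the length scale; 6 residual degrees of freedom, prior 2.58) for genes reaching 1 RPKM in 2 libraries or more. The script was tested on simulated data. Groups follow the labels. Named genes are those called in any comparison, at a mean of 2 RPKM or more in any group, or past a log2 difference of 1 in a single library; others were named after their values were seen (among them Il1a, Il1rap, Cxcl10, Ccl5, Cxcr4, Il23a, Il6ra, Il34, Il17d, Il1r2, Il1rn, Il11, Ccl27b, Cxcl11, Mmp3, Vcam1, Csf1, Mpeg1, Cd68, Laptm5, Csf1r, Kdr, Esam, Cdh5, Flt1, Il17rc, Twist1, Twist2, Thy1). A result that rests on a withheld item is not reported here. The genes and the lists were chosen with earlier results of these data known. Alternatives changed the pseudocount, filter, scaling, length term and libraries.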

Additional observations from a re-analysis of the deposited data

How the results depend on the processing

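Il33, Cxcr7 and Cxcl12 between GFP-negative cells and MEF kept their calls in all 15 alternatives, while Il1r1 lost its call in 5 and Il4ra in 13. The filter favoured the rise of Il33, so its kept call is no independent evidence of a rise. The 2 alternatives with a filter of 0.1 RPKM plus pseudocount 0.1 and with the same libraries but no block were chosen after seeing the data.

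For GFP-negative cells against MEF, the count of genes called higher was 4 and became 2 with no length-scale term, with exact-zero libraries only, with the replicate block and with the same libraries and no block; leaving out 1 library in turn gave 2 to 4. The lower count of 2 became 5 with pseudocount 0.1 and 6 with that and the filter of 0.1 RPKM, and ranged from 1 to 5 with 1 library left out (1 without GFP-negative replicate 1, 5 without replicate 2, 4 without MEF replicate 3). For GFP-negative cells against ESC the higher count of 8 became 13 with filter and pseudocount of 0.1, 5 with exact-zero libraries only and with the same libraries and no block, and 5 to 10 with 1 library left out (5 without ESC replicate 1 or 3); the lower count of 1 became 2 with pseudocount 0.1 and 5 with filter and pseudocount of 0.1, and 0 to 1 with 1 library left out. For ESC against MEF the higher count of 0 became 1 with pseudocount 0.1 and 4 with filter and pseudocount of 0.1. The lower count of 5 became 15 and 17 under these, 8 with no length-scale term, and 5 to 9 with 1 library left out (9 without MEF replicate 3). Over all genes, the 849 lower calls became 1155 and 1459 under these, 701 with no length-scale term and 823 without MEF replicate 3. The 846 higher calls over all genes became 1435 with pseudocount 0.1 and 1638 with filter and pseudocount of 0.1. CiPSC against ESC 4 stayed at 0 called genes in every alternative run.

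For the single libraries, pseudocount 0.1 raised the lower counts of the clusters library from 2 to 7 against GFP-negative cells, 9 to 16 against MEF and 2 to 6 against ESC, and its higher count against ESC from 6 to 10. For colonies it raised the higher counts from 7 to 15 against clusters and 4 to 15 against ESC, and the lower counts from 5 to 13 against MEF and 0 to 1 against ESC. Leaving out 1 library changed the counts of clusters against GFP-negative cells and gave 0 to 1 lower for colonies against ESC (1 without ESC replicate 3). No like counts over all genes are given for these alternatives of the single libraries, so they describe the processing and not the set. Replicates 1 and 2 of GFP-negative cells, ESC and MEF share only a number: correlations of their deviations were −0.04, 0.08 and −0.07 over 10647 genes. With the replicate block, 2 genes were called higher and 3 lower for GFP-negative cells against MEF, 6 and 1 against ESC, and 0 and 4 for ESC against MEF. The like calls over all genes were 149 and 180, 724 and 1115, and 493 and 594. Over all genes, the 376 higher and 435 lower calls of GFP-negative cells against MEF became 183 and 193 with no length-scale term and 468 and 923 with pseudocount 0.1. Against ESC, the 889 higher and 1526 lower calls became 1366 and 2841 with filter and pseudocount of 0.1. With exact-zero libraries only they became 810 and 1221. The depth estimate sets the lowest detectable level of short genes such as Ccl20 near 0.121 RPKM, and the exonic libraries have no depth.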
